A study of Mus musculus with 26 samples.

Results

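The MyoD family comprises the 4 genes Myog, Myod1, Myf5 and Myf6, which encode the skeletal muscle transcription factors myogenin, MyoD, Myf5 and MRF4. They were chosen by name, and their Ensembl identifiers were looked up among the 55341 genes counted in each of 26 RNA-seq libraries of C2C12, a mouse myoblast line that exits the cell cycle and forms myotubes in low-serum differentiation medium. All 4 were found, and all 4 passed the filter on low counts in both experiments of the study, the knockdown and the overexpression of the lysine methyltransferase SMYD3.

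In the knockdown experiment, C2C12 cells received siCtrl, siSMYD3#1 or siSMYD3#2 in consecutive transfections, the last of them when differentiation was induced, and were collected at 0 h and 24 h of differentiation, with 3 libraries for each of the 6 conditions. In each condition 1 library was extracted with TRIzol and 2 with the NucleoSpin RNA Kit. The study's library list puts the TRIzol and NucleoSpin libraries at different passages, so extraction and passage cannot be told apart. The overexpression experiment compared "SMYD3 overexpression (pREV-SMYD3 CL5)", called CL5 below, with "Empty vector (pREV)", called vector, at the same times, with 2 libraries for each of the 4 conditions, all TRIzol. CL5 is a single clone that carries tagged SMYD3 from a retroviral vector and was not transfected with siRNA, and the vector cells were sub-cloned as well. The study's methods speak of biological replicates, but neither they nor the labels say that the libraries came from separate cultures, so the p-values measure the spread between these libraries, which may in part be technical.

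The family encodes basic helix-loop-helix proteins that bind the DNA word CANNTG, the E-box, as dimers with an E protein. Myf5 and MyoD are the determination factors and mark proliferating myoblasts, whereas myogenin is switched on when a myoblast commits to differentiate and MRF4 is best known from later muscle fibres. Id proteins hold the E proteins away from them, and MEF2 factors act with them on muscle genes.

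The genes lie on 3 chromosomes of GRCm38. Myog (ENSMUSG00000026459) is at chr1:134289989-134292548 on the plus strand and Myod1 (ENSMUSG00000009471) at chr7:46376474-46379099 on the plus strand. Myf6 (ENSMUSG00000035923, chr10:107492853-107494737) and Myf5 (ENSMUSG00000000435, chr10:107482908-107486134) are neighbours on the minus strand, separated by 6718 bases. Each gene has 3 exons, and none shares an exon base with another annotated gene, so their counts are not divided between overlapping genes.

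The study concerns the start of Myog transcription. The 250 bases before the RefSeq start of Myog (GRCm38.p6, chr1:134289754-134290003, plus strand) and of Myf5 (chr10:107486135-107486384, minus strand) are shown. Only these members had an entry in the RefSeq promoter set used. E-boxes are in capitals. 
Myog: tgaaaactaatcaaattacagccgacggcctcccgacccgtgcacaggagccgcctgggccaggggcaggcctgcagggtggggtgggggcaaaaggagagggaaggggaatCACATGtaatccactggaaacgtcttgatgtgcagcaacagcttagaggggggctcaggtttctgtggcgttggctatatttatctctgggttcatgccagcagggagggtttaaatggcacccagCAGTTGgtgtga
Myf5: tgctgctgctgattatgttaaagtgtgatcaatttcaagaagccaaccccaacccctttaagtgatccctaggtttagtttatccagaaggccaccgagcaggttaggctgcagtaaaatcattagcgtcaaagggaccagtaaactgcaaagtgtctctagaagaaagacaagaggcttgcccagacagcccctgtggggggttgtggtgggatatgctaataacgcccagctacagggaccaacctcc
In Myog the E-box CACATG begins 138 bases and CAGTTG 12 bases before the start. The window searched for words ran 50 bases further, past the start, on both strands. CANNTG was found 2 times for Myog and 0 times for Myf5, against 72.3% of 32851 promoters of this length with at least 1, and the forms CAGCTG and CAGGTG, held by 16.3% and 20.2% of promoters, were in neither. Of the words reported for SMYD3 binding, CCCTCC occurred 1 time for Myog and GAGGGG 2 times, words that 39.2% and 32.9% of promoters hold, and neither occurred for Myf5. The paper reports that it detected no significant SMYD3 binding at the Myog locus, in data it does not show. TATAAA, in 13.6% of promoters, occurred 1 time for Myf5, past the part shown, and not for Myog. The MEF2 consensus was searched as YTAWWWWTAR, where Y is C or T, W is A or T and R is A or G. An exact match, in 3.19% of promoters, was in neither window, and near matches were not counted. Myod1 and Myf6 had no entry in that promoter set, so they were not analysed for these words.

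The guide strands of the siRNAs are shown because they define the groups of the knockdown experiment. Bases 2 to 8, the seed, are in capitals. 
siCtrl: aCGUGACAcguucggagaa
siSMYD3#1: gUUGGGGUcacagcuguga
siSMYD3#2: uCAAAUCUucaaucaggcu
The whole length of siSMYD3#1 matched 3 of 7 annotated Smyd3 transcripts and that of siSMYD3#2 matched 4 of 7, and neither matched a transcript of another gene. The seed of siSMYD3#1 matched transcripts of Myog, Myod1 and Myf6 at 1 place each, and that of siSMYD3#2 matched Myf5 at 1 place. Seeds of this length matched 29% and 27.7% of 15732 tested genes with a transcript sequence, and the siCtrl seed, which matched no family member, 9.39%. The longest complementary run was 8 bases for siSMYD3#1, in Myog and Myf6, and 7 bases for siSMYD3#2, in Myf5 and Myf6. A match is a description of letters, and its part in the results was not tested.

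Library totals ran from 14315193 to 60398170 counts in the knockdown and from 21124675 to 67853386 in the overexpression experiment. The muscle lineage list of 7 genes, Des and Cdh15 among them, was detected in every condition, with summed levels of 487.5 to 2840 CPM (counts per 1000000 of a library total scaled by TMM over all 26 libraries). Of 22 markers of other cell types, 13 exceeded 1 CPM in no library, among them the adipocyte genes Adipoq and Plin1 (at most 0.0759 and 0.12 CPM), endothelial Tie1 (0.0375), neural Sox10 (0.0486), and osteoblast Ibsp and leukocyte Adgre1, which had no count. In every library 4 did, Runx2 (36.8 to 93.7 CPM), Lpl (8.98 to 92.1), Cebpa (2.14 to 36.0) and Cd68 (1.5 to 6.73). The lists summed to 38.4 to 99.3 CPM for adipocytes, 37.5 to 94.6 for osteoblasts, 1.54 to 6.91 for leukocytes, 0.0691 to 2.65 for endothelium and 0.820 to 4.77 for Schwann or neural cells. The adipocyte sum was lower at 24 h than at 0 h in siCtrl (59.1 to 62.5 against 81.1 to 88.4 CPM) and lower in CL5 than in vector at 24 h (38.4 to 40.3 against 50.7 to 61.8 CPM), and its part in the differences of the family was not tested. Smyd3, the targeted gene, was at 20.3 to 22.1 CPM in siCtrl at 0 h and 18.3 to 21.3 CPM at 24 h. It was lower in the siSMYD3#2 libraries, at 5.46 to 9.91 CPM, by 1.51 on the log2 scale at 24 h (adjusted p = 5.06e-05) and 1.41 at 0 h (adjusted p = 0.000107). In the libraries labelled siSMYD3#1 it was at 15.6 to 20.2 CPM, below every siCtrl library at 0 h but overlapping them at 24 h. The log2 differences of -0.24 at 24 h (adjusted p = 0.414) and -0.16 at 0 h did not pass the test, so in these counts no knockdown passed the threshold for this label. The paper followed SMYD3 protein by western blot and Smyd3 mRNA by qPCR in its knockdown cells, and those measures are not part of these counts. CL5 libraries held 16.0 to 26.1 CPM and vector libraries 15.0 to 17.7 CPM, a log2 difference of 0.29 at 0 h and 0.36 at 24 h that did not pass either. Whether reads of the vector's SMYD3 count towards the mouse gene is not given in the sources used here.

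Across the 10 conditions the members held different places. On the scale of RPKM, that is CPM per kilobase of exon, which allows levels of different genes to be compared, Myf5 made up 77.4% ± 12 (SD, n = 3) of the summed family level in siCtrl at 0 h, Myod1 20.4% ± 11 and Myog 1.21% ± 0.923. At 24 h Myog held 61.3% ± 18.9, Myf5 33.3% ± 18.5 and Myod1 4.79% ± 0.707. In siSMYD3#1 at 24 h Myf5 still held the largest share, 71.3% ± 10.2, against 15.6% ± 5.51 for Myog. The siSMYD3#2 libraries at 24 h were between these, with 56.0% ± 1.13 for Myf5 and 37.5% ± 1.08 for Myog.

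CL5 had another makeup. At 0 h Myod1 held 61.0% ± 22.8 (SD, n = 2) and Myf5 6.44% ± 3.30, where the vector libraries held 30.04% ± 9.84 and 69.0% ± 9.67. Myog already held 13.9% and 50.9% of the family in the CL5 libraries at 0 h, against 0.370% and 0.675% in vector. The ratio of Myf5 to Myod1, both in RPKM, was 0.0914 to 0.578 in the 4 CL5 libraries and 1.39 to 12.3 in the 22 others, without overlap. These shares and ratios describe the libraries and were not tested, and fewer cells that express a gene cannot be told apart from less RNA per cell in any of these bulk libraries.

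**Figure D1:**
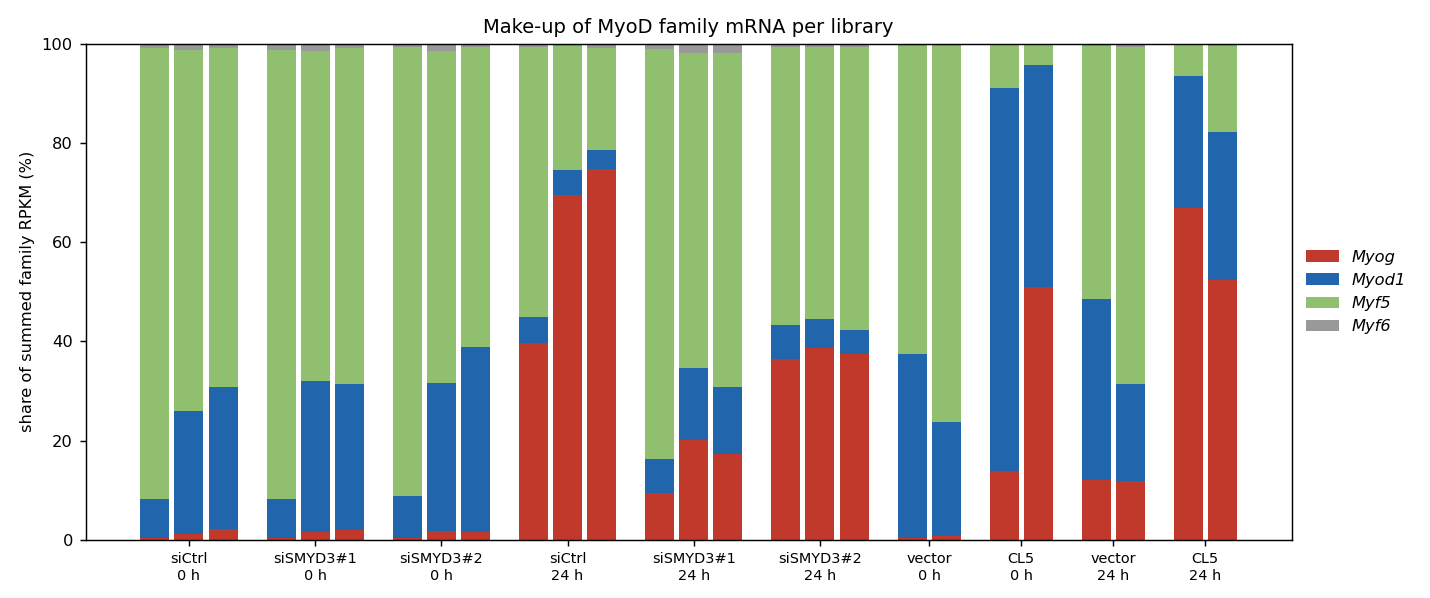
Share of the summed RPKM of the 4 genes, in percent, held by each gene in each of the 26 libraries, grouped by condition. Myf5 is the largest part in every siRNA library at 0 h (60.6% to 91.0%), Myog in the siCtrl libraries extracted with NucleoSpin at 24 h (69.6% and 74.7%), and Myod1 or Myog in the CL5 libraries.

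The summed family level in siCtrl was 55.8 ± 10.1 RPKM at 0 h and 184.9 ± 77.3 at 24 h. At 24 h it was 58.9 ± 15.9 RPKM in siSMYD3#1 and 75.7 ± 17.0 in siSMYD3#2, both below the lowest siCtrl library of 96.5. CL5 held 88.2 ± 22 RPKM at 0 h and 106.4 ± 14.7 at 24 h, above the vector values of 47.4 ± 0.679 and 37.5 ± 0.156.

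Myog, the differentiation member, was at the edge of detection in undifferentiated siCtrl cells. The siCtrl libraries at 0 h held 0.188 CPM (TRIzol, 5 counts), 1.14 CPM and 1.95 CPM (NucleoSpin, 30 and 109 counts). At 24 h they held 57.2 CPM (TRIzol), 228 CPM and 267 CPM. Every 24 h library was above every 0 h library, and within either time the TRIzol library was the lowest. The log2 fold change was 7.25 (SE 0.38, adjusted p = 8.45e-09, edgeR quasi-likelihood test), 152-fold. It was the only 1 of the 4 members past the threshold of 0.01 in this comparison, in which 29.4% of the 15820 genes tested were called.

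**Figure D2:**
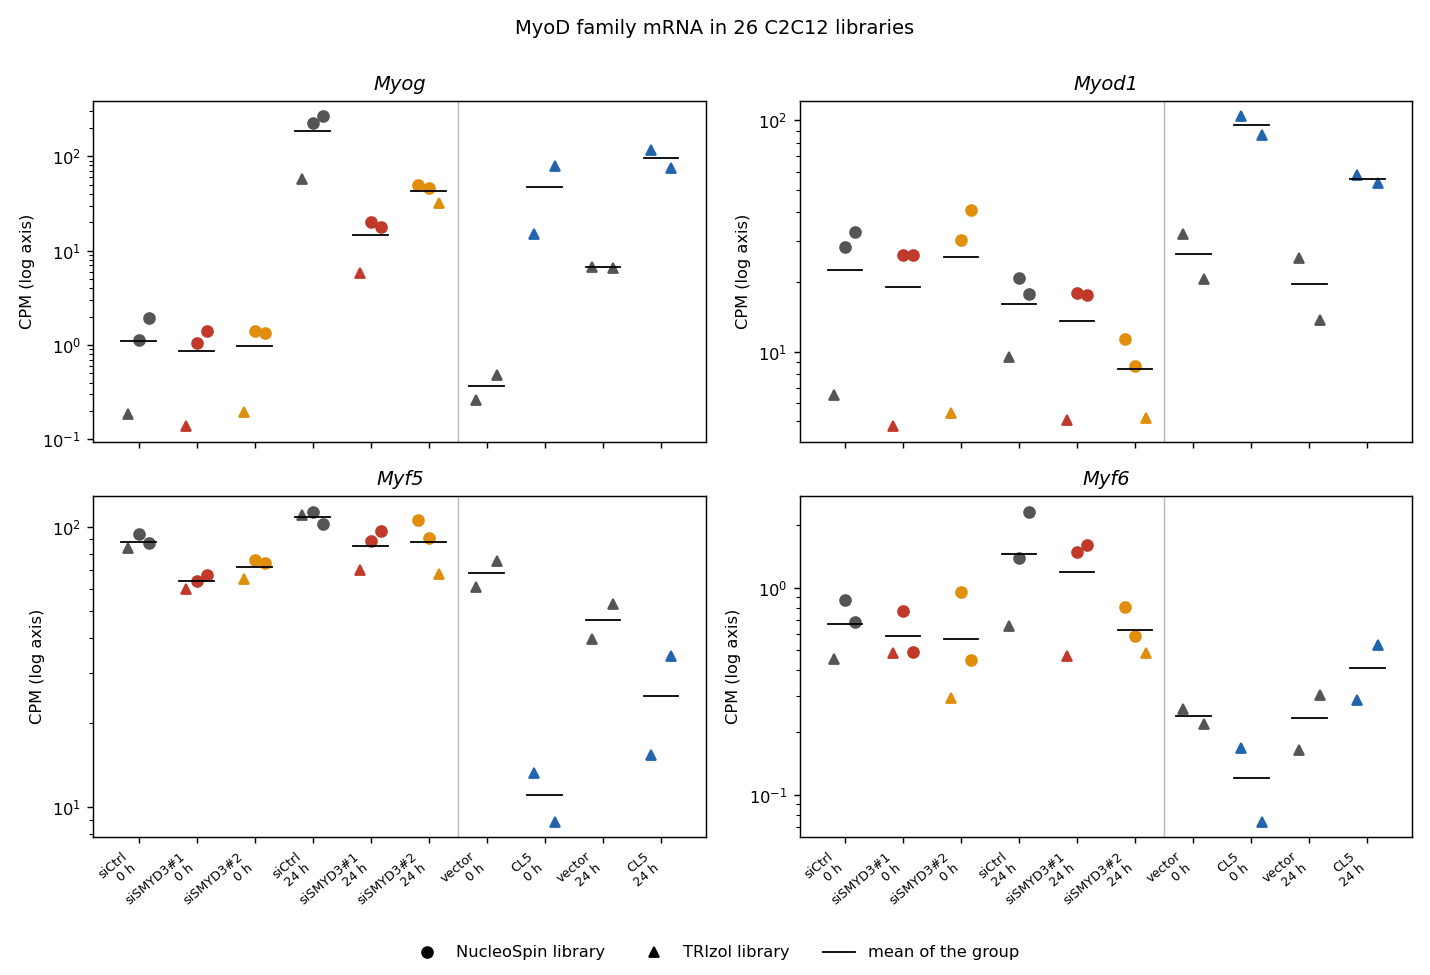
Level of Myog, Myod1, Myf5 and Myf6 in every library, in CPM on a log axis, by condition. Points are libraries, marked by extraction method, and bars are condition means. Myog is at 0.138 to 1.95 CPM in the 9 siRNA libraries at 0 h and 15.1 and 78.9 CPM in the CL5 libraries at 0 h, while Myf6 stays at or below 2.33 CPM.

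At 24 h Myog was lower with both SMYD3 siRNAs, also in the libraries labelled siSMYD3#1, whose Smyd3 level did not differ from siCtrl past the threshold. In siSMYD3#1 at 24 h Myog was at 5.75 CPM (TRIzol), 20.2 CPM and 17.8 CPM. In siSMYD3#2 it was at 31.9 CPM (TRIzol), 49.5 CPM and 46.0 CPM. No siSMYD3#1 or siSMYD3#2 library reached the lowest siCtrl library, 57.2 CPM, at this time. Myog fell by 3.59 on the log2 scale with siSMYD3#1 (SE 0.30, adjusted p = 5.40e-06), 12-fold, and by 1.81 with siSMYD3#2 (SE 0.28, adjusted p = 0.00125), 3.52-fold. Among the family Myog was the 1 member called for siSMYD3#1, against a background of 5.85% of genes, and the 1 member called for siSMYD3#2, against 3.70%.

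The siSMYD3#1 difference was of like size in every pair of libraries that share a number in the study's library list, at -3.49, -3.91 and, for the TRIzol pair, -3.30 on the log2 scale of CPM. For siSMYD3#2 the NucleoSpin pairs differed by -2.20 and -2.54 and the TRIzol pair by -0.84. Without the siSMYD3#2 library at 49.5 CPM the fitted difference was -1.62 (adjusted p = 0.0135), and without the one at 46.0 CPM it was -1.57 (adjusted p = 0.0133), so this call needs both NucleoSpin libraries. In the 12 NucleoSpin libraries alone Myog fell by 3.70 with siSMYD3#1 (adjusted p = 3.08e-11) and by 2.37 with siSMYD3#2 (adjusted p = 6.59e-09). Without the extraction covariate the difference was -3.67 with siSMYD3#1 (adjusted p = 0.0233) and -2.11 with siSMYD3#2 (adjusted p = 0.242), neither past the threshold.

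The siRNAs also differed from each other. Myog was lower in siSMYD3#1 than in siSMYD3#2 at 24 h, with a log2 difference of -1.77 (SE 0.29, adjusted p = 0.00211), 3.42-fold, the 1 member called where 3.36% of genes were. Pair by pair the difference was -1.29, -1.37 and -2.46, the last between the TRIzol libraries. Without the siSMYD3#1 library at 20.2 CPM it was -1.86 (adjusted p = 0.0123), and without the one at 17.8 CPM -1.74 (adjusted p = 0.0158). Smyd3 itself had the other order, higher in siSMYD3#1 than in siSMYD3#2 by 1.27 on the log2 scale (adjusted p = 0.000176).

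Myog nevertheless rose between 0 h and 24 h under each siRNA. The log2 fold change was 4.15 in siSMYD3#1 (SE 0.42, adjusted p = 6.25e-06), 17.7-fold, and 5.65 in siSMYD3#2 (SE 0.39, adjusted p = 4.49e-07), 50.3-fold. In each of these comparisons 2 of the 4 members were called, Myog and Myf5 for siSMYD3#1 and Myog and Myod1 for siSMYD3#2, where 25.4% and 19.0% of all genes were.

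At 0 h Myog did not separate the siRNAs. The siSMYD3#1 libraries held 0.138 CPM (TRIzol), 1.06 CPM and 1.41 CPM, and the siSMYD3#2 libraries 0.194 CPM (TRIzol), 1.41 CPM and 1.33 CPM, overlapping siCtrl. The log2 differences were -0.48 (95% interval -1.61 to 0.65, adjusted p = 0.812) and -0.21 (95% interval -1.24 to 0.81, adjusted p = 0.937). With 4 to 109 counts in these libraries, such intervals were too wide to exclude a change of 2-fold. No member was called at 0 h by edgeR with either siRNA, where 1.43% and 0.531% of genes were, or between the siRNAs, where 1.17% were. At an unadjusted p under 0.05 there was 1 member for each siRNA against siCtrl, Myf5 both times, and 0 between them, and DESeq2 called 1, Myf5 with siSMYD3#1, 0 and 0.

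Whether the effect on Myog at 24 h differed from that at 0 h was tested as an interaction. It was -3.10 on the log2 scale for siSMYD3#1 (SE 0.65, adjusted p = 0.0471) and -1.60 for siSMYD3#2 (SE 0.56, adjusted p = 0.317), so neither passed, with 0.215% and 0.019% of genes called and 0 of the 4 members. The count of members at an unadjusted p under 0.05 was 1 and 2, and DESeq2 called 1 and 0. Leaving out the TRIzol library of siSMYD3#2 at 24 h gave -3.12 (adjusted p = 0.000118) and -2.16 (adjusted p = 0.00256), and the NucleoSpin libraries alone gave -3.26 (adjusted p = 3.80e-05) and -2.11 (adjusted p = 0.000438).

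In the overexpression experiment Myog was the member with the largest difference between lines. The vector libraries held 0.260 CPM and 0.483 CPM at 0 h and 6.73 CPM and 6.61 CPM at 24 h. The CL5 libraries held 15.1 CPM and 78.9 CPM at 0 h and 117 CPM and 75.4 CPM at 24 h. Both CL5 libraries were above both vector libraries at either time, but the CL5 libraries of 0 h lay far apart and overlapped those of 24 h. At 0 h Myog was higher in CL5 by 6.86 on the log2 scale (SE 0.89, adjusted p = 0.00885), 116-fold. It was the 1 member called in a comparison in which 1.07% of 17835 genes were. At 24 h the difference was 3.82 (SE 0.73, adjusted p = 0.0376), and no member was called by edgeR where 0.964% of genes were, with 2 members at an unadjusted p under 0.05 and 2 called by DESeq2.

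The call at 0 h stood close to the threshold. Each condition has 2 libraries, so a fit that left out 1 took the spread of the lone library from the other groups. The call was lost in 6 of the 8 such fits, with adjusted p of 0.101 and 0.0885 without the vector libraries of 0 h at 0.260 and 0.483 CPM, 0.0255 and 0.0254 without those of 24 h at 6.73 and 6.61 CPM, and 0.0247 and 0.0250 without the CL5 libraries of 24 h at 117 and 75.4 CPM. The log2 difference then lay between 6.57 and 7.42. Without either CL5 library of 0 h, at 15.1 or 78.9 CPM, the spread of the fit was smaller and the difference at 24 h passed, at 3.87 (adjusted p = 0.000184) and 3.84 (adjusted p = 0.000197).

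Between 0 h and 24 h Myog was higher by 4.09 on the log2 scale in vector (SE 0.82, adjusted p = 0.365) and by 1.05 in CL5 (SE 0.66, adjusted p = 0.897), where the pairs of libraries with the same study number gave 2.94 and -0.07. Neither passed. In both comparisons and in the difference between them edgeR called 0 of 17835 genes, 0% each, with 1256, 1137 and 312 genes at an unadjusted p under 0.05 and 119, 109 and 2 called by DESeq2. DESeq2 called Myog in vector (log2 4.15, adjusted p = 2.49e-06). Without the CL5 library of 0 h at 15.1 CPM the vector difference was 4.07 (adjusted p = 0.00534), and without that at 78.9 CPM 4.08 (adjusted p = 0.00504).

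In the order of levels, Myog was highest in siCtrl at 24 h (184 ± 112 CPM, n = 3), then CL5 at 24 h (96.1 ± 29.3, n = 2), CL5 at 0 h (47.0 ± 45.1) and siSMYD3#2 at 24 h (42.5 ± 9.29), each overlapping the next in range. Next came siSMYD3#1 at 24 h (14.6 ± 7.74), below every siSMYD3#2 library of that time but overlapping CL5 at 0 h, and vector at 24 h (6.67 ± 0.0912), within the range of siSMYD3#1. The 4 conditions left, all of 0 h, were at 0.371 to 1.09 CPM on average and overlapped each other.

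Myod1, a determination member, showed no call with differentiation in siCtrl. The siCtrl libraries held 6.53 CPM (TRIzol), 28.4 CPM and 32.8 CPM at 0 h and 9.52 CPM (TRIzol), 20.7 CPM and 17.8 CPM at 24 h. The TRIzol library was higher at 24 h and both NucleoSpin libraries were lower, with pair differences of 0.54, -0.45 and -0.88 on the log2 scale. The fitted log2 difference was -0.25 (SE 0.29, adjusted p = 0.508). In the NucleoSpin libraries alone Myod1 fell by 0.66 on the log2 scale (adjusted p = 0.00156). Under siSMYD3#1 the difference was -0.38 over all libraries (adjusted p = 0.328), and in NucleoSpin alone Myod1 fell by 0.55 (adjusted p = 0.00636).

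Under siSMYD3#2 Myod1 fell with differentiation. Its 0 h libraries held 5.44 CPM (TRIzol), 30.4 CPM and 40.8 CPM, and its 24 h libraries 5.15 CPM (TRIzol), 11.4 CPM and 8.68 CPM. The fall was 1.30 on the log2 scale (SE 0.30, adjusted p = 0.00455), 2.46-fold, although the ranges of the times overlapped. It lay in the NucleoSpin pairs, at -1.42 and -2.22, since the TRIzol pair differed by -0.08. It was not past the threshold without any 1 of the 4 NucleoSpin libraries, with adjusted p of 0.0154 and 0.0281 without those of 0 h at 30.4 and 40.8 CPM and 0.0307 and 0.0335 without those of 24 h at 11.4 and 8.68 CPM.

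The knockdown differences of Myod1 at 24 h were smaller than those of Myog. With siSMYD3#1 the libraries held 5.06 CPM (TRIzol), 18 CPM and 17.5 CPM, a log2 difference from siCtrl of -0.41 (95% interval -1.03 to 0.22, adjusted p = 0.455). With siSMYD3#2 the difference was -0.94 (95% interval -1.59 to -0.29, adjusted p = 0.0716), and the pairs gave -0.87, -1.03 and -0.88. In the NucleoSpin libraries alone the siSMYD3#2 difference of -0.95 passed (adjusted p = 0.000923), as did that between the siRNAs, with Myod1 higher in siSMYD3#1 by 0.82 (adjusted p = 0.00245), while that of siSMYD3#1 against siCtrl did not (-0.13, adjusted p = 0.627). Over all 18 libraries the difference between the siRNAs was 0.53 (adjusted p = 0.339). The interaction of siSMYD3#2 with time was -1.05 (adjusted p = 0.383), and -1.15 in NucleoSpin alone (adjusted p = 0.00661).

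Myod1 was at its highest in CL5. At 0 h the CL5 libraries held 104 CPM and 86.8 CPM against 32.3 CPM and 20.6 CPM in vector, and at 24 h 57.8 CPM and 53.4 CPM against 25.4 CPM and 13.7 CPM. The CL5 libraries were above every 1 of the 22 other libraries, of which the highest held 40.8 CPM. Those 22 include siRNA-transfected cells, and the share of all genes with such a separation was not counted. The log2 differences from vector, 1.79 at 0 h (SE 0.36, adjusted p = 0.0392) and 1.48 at 24 h (SE 0.35, adjusted p = 0.0775), did not pass in edgeR. DESeq2 called both, at 1.85 (adjusted p = 5.75e-05) and 1.48 (adjusted p = 0.00277). Between 0 h and 24 h the log2 difference was -0.46 in vector and -0.78 in CL5 (adjusted p = 0.796), neither past the threshold. In the order of levels the CL5 conditions came first, each above the next without overlap, and the 8 conditions below them, from 26.4 ± 8.29 CPM in vector at 0 h to 8.40 ± 3.11 in siSMYD3#2 at 24 h, overlapped from each to the next.

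Myf5, the other determination member, was the most abundant of the 4 in RPKM in all 9 siRNA and both vector libraries of 0 h, but in neither CL5 library, and had no call against siCtrl at either time. The siCtrl libraries held 83.8 CPM (TRIzol), 94.2 CPM and 87.1 CPM at 0 h and 110 CPM (TRIzol), 113 CPM and 103 CPM at 24 h. All libraries of 24 h were above all of 0 h, with pair differences of 0.26, 0.23 and 0.39, but the fitted log2 difference of 0.31 did not pass (SE 0.11, adjusted p = 0.0228). Under siSMYD3#1 Myf5 rose, from 60.2 CPM (TRIzol), 64.0 CPM and 67.3 CPM to 70.0 CPM (TRIzol), 89.0 CPM and 96.6 CPM. The log2 change was 0.42 (SE 0.11, adjusted p = 0.00469), 1.33-fold, and was lost without any 1 of the NucleoSpin libraries, with adjusted p of 0.0307 and 0.0190 without those of 0 h at 64.0 and 67.3 CPM and 0.0187 and 0.0317 without those of 24 h at 89.0 and 96.6 CPM. Under siSMYD3#2 the difference was 0.31 (adjusted p = 0.0324), and it passed without the TRIzol library of 24 h (0.41, adjusted p = 0.00904) and in the NucleoSpin libraries alone (0.40, adjusted p = 0.00324).

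**Figure D3:**
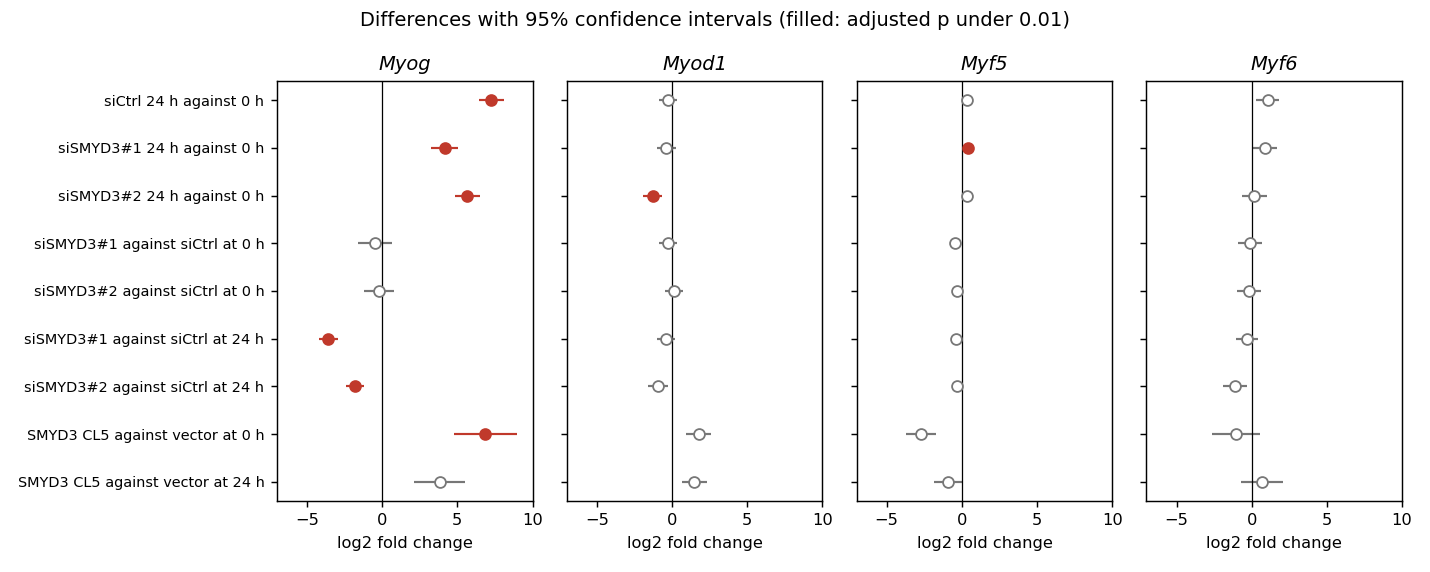
Log2 differences of each member in the comparisons of time, knockdown and overexpression, with 95% intervals, and filled marks for an adjusted p under 0.01 (edgeR). Myog is far from 0 in the comparisons of 24 h with 0 h under the siRNAs (4.15 to 7.25) and below 0 with both SMYD3 siRNAs at 24 h, while the Myf5 values of the knockdown lie between -0.47 and 0.42.

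Against siCtrl, Myf5 was lower in every siSMYD3#1 and siSMYD3#2 library at 0 h. The siSMYD3#2 libraries of 0 h held 64.9 CPM (TRIzol), 75.9 CPM and 74.3 CPM, and with the siSMYD3#1 values above all 6 lay below the lowest siCtrl library of 83.8 CPM. The pair differences were -0.56, -0.37 and -0.48 for siSMYD3#1 and -0.31, -0.23 and -0.37 for siSMYD3#2. The fitted values, -0.47 (SE 0.11, adjusted p = 0.0168) and -0.31 (adjusted p = 0.243), did not pass, so at this threshold the non-overlap was no call. The share of all genes without overlap in these comparisons was not counted. For siSMYD3#1 the difference passed in DESeq2 (-0.47, adjusted p = 0.00149), in the NucleoSpin libraries alone (-0.46, adjusted p = 0.00697), without the TRIzol library of siCtrl at 24 h (-0.47, adjusted p = 0.00956) and without that of siSMYD3#2 at 24 h (-0.47, adjusted p = 0.00719).

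At 24 h the Myf5 difference was -0.36 for siSMYD3#1 (SE 0.11, adjusted p = 0.0312), with all 3 libraries below siCtrl. It was -0.31 for siSMYD3#2 (adjusted p = 0.076), whose libraries held 68 CPM (TRIzol), 106 CPM and 90.9 CPM and overlapped siCtrl. The difference was widest in the TRIzol pairs, at -0.65 and -0.69, against -0.34 and -0.08 for siSMYD3#1 and -0.10 and -0.17 for siSMYD3#2 in the NucleoSpin pairs.

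CL5 was the line with the least Myf5. Its libraries held 13.3 CPM and 8.88 CPM at 0 h against 60.7 CPM and 75.6 CPM in vector, and 15.4 CPM and 34.5 CPM at 24 h against 39.7 CPM and 53.2 CPM. All 4 lay below the lowest of the 22 other libraries, 39.7 CPM. Those 22 include siRNA-transfected cells, and the share of all genes with such a separation was not counted. The log2 difference from vector was -2.69 at 0 h (SE 0.43, adjusted p = 0.0181) and -0.93 at 24 h (SE 0.41, adjusted p = 0.368), neither past the threshold in edgeR. DESeq2 called that at 0 h (-2.63, adjusted p = 1.03e-07), and it also passed in edgeR without the CL5 library of 0 h at 13.3 CPM (-2.96, adjusted p = 0.00467).

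So in CL5 the values of the determination members lay on opposite sides of the vector, Myod1 above and Myf5 below. Over the 8 libraries of this experiment the Pearson correlation of log2 CPM was -0.86 between Myod1 and Myf5 and -0.79 between Myog and Myf5, and 0.58 between Myog and Myod1. These points are 2 lines at 2 times, and the correlations are a description of that. Over the 18 siRNA libraries, which share an extraction split, the values were 0.20, 0.73 and 0.04.

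Myf6 was the least abundant member in RPKM in 22 of the 26 libraries, and Myog was in the 4 others, all of 0 h. Myf6 had 3 to 42 counts in a library and 0.0740 to 2.33 CPM, at most 1.85% of the family in RPKM. In siCtrl it was at 0.450 CPM (TRIzol), 0.873 CPM and 0.681 CPM at 0 h and 0.651 CPM (TRIzol), 1.39 CPM and 2.33 CPM at 24 h, a log2 difference of 1.07 (SE 0.36, adjusted p = 0.0228) with overlap of the times. With siSMYD3#1 at 24 h the difference from siCtrl was -0.31 (adjusted p = 0.669) and with siSMYD3#2 -1.09 (SE 0.38, adjusted p = 0.0861). In CL5 against vector it was -1.03 at 0 h (adjusted p = 0.459) and 0.69 at 24 h (adjusted p = 0.732). No difference of Myf6 between treatments or times was detectable at this depth. It was past the threshold only between the extraction methods.

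Extraction method, with passage, moved 3 of the 4 members, in a comparison that called 51.3% of genes. Across the 6 siRNA conditions the TRIzol libraries were lower than the NucleoSpin libraries by 1.82 on the log2 scale for Myod1 (SE 0.20, adjusted p = 1.36e-06), 1.6 for Myog (SE 0.23, adjusted p = 3.55e-05) and 1.04 for Myf6 (SE 0.25, adjusted p = 0.00127). For Myf5 the difference was -0.21 (adjusted p = 0.0105). It passed in DESeq2 (-0.20, adjusted p = 0.00982). It also passed, at -0.22 to -0.23 with adjusted p of 0.00532 to 0.00862, when 1 library was left out, either of siCtrl at 24 h with Myf5 at 110 or 103 CPM, that of siCtrl at 0 h with 87.1 CPM, that of siSMYD3#1 at 0 h with 64.0 CPM or that of siSMYD3#2 at 0 h with 74.3 CPM. Myod1 was at 4.77 to 9.52 CPM in the 6 TRIzol libraries and 8.68 to 40.8 CPM in the 12 NucleoSpin libraries. The RPKM ratio of Myf5 to Myod1 was 10.3 to 12.3 in TRIzol, whatever the time, and went from 1.63 to 2.96 at 0 h to 4.43 to 9.35 at 24 h in NucleoSpin. Of 34 tested target genes of the family, listed below, 17 were lower in TRIzol and 1 higher, where 25.3% and 26.1% of all genes were, and 12 to 22 were lower when 1 library was left out. Des, the intermediate filament of muscle, was among the 17 lower genes (-3.52, adjusted p = 9.82e-16), and its part in the differences of the family was not tested. The overexpression libraries were all TRIzol and held Myod1 at 13.7 CPM or more.

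The list named here genes long used as targets of the family held 40 genes and was written with earlier results of these data known. Most belong to contraction, fusion or the neuromuscular synapse, but others, such as Cdkn1a, Cdkn1c, Smyd1 and Trim63, do not. The listed genes were counted beside Myog. In siCtrl 32 of the 34 tested rose between 0 h and 24 h and 0 fell, against 14.6% of all genes that rose. Their median log2 fold change was 4.63, that of all genes 0.03. With the 1 gene at 3 counts or fewer in every 0 h library set to its bound, the median was 4.62. That gene was Ckm, muscle creatine kinase, with 0 to 3 counts per library at 0 h and 539 to 935 at 24 h. Ckm passed the filter on low counts only through libraries of 24 h, so its direction was fixed in advance. Embryonic myosin heavy chain Myh3 rose by 9.57 (adjusted p = 2.29e-08) and the myosin-binding protein Mybph by 8.29 (adjusted p = 1.84e-10). Under siSMYD3#1 23 rose and under siSMYD3#2 24, with medians of 1.93 and 2.94, where 12.7% and 9.11% of all genes rose.

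Against siCtrl at 24 h 25 of the 34 fell with siSMYD3#1 (median -2.33) and 23 with siSMYD3#2 (median -1.67), where 2.94% and 2.04% of all genes fell, and 0 rose with either. The log2 differences were -4.0 for Myh3, -3.87 for Mybph and -3.8 for Ckm with siSMYD3#1. With siSMYD3#2 they were -2.41 for Myh3, -2.26 for Ckm and -2.24 for Mymk, the fusion protein myomaker. At 0 h edgeR called 0 with either siRNA, with 1 and 2 genes at an unadjusted p under 0.05, and DESeq2 called 0 and 0. Between the siRNAs at 24 h 5 were lower in siSMYD3#1 (median -0.75), where 1.31% of all genes were, and 2 to 10 were when 1 library was left out. The interaction called 11 for siSMYD3#1, all lower, where 0.171% of all genes were, with medians of -2.19 and -1.53 for the 2 siRNAs, and 0 for siSMYD3#2, where 25 genes had an unadjusted p under 0.05 and DESeq2 called 13. In the NucleoSpin libraries alone 31 and 28 fell at 24 h, and without the extraction covariate 17 and 5.

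**Figure D4:**
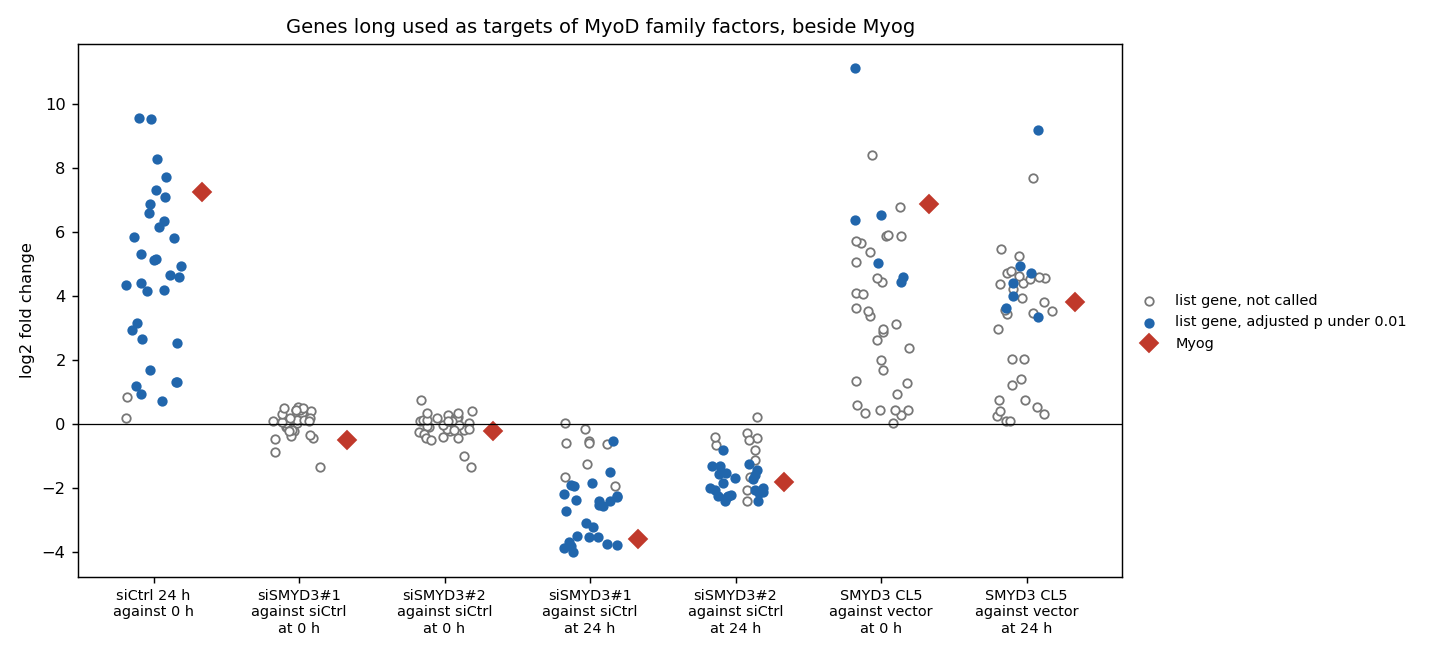
Log2 differences of the listed target genes beside the value of Myog in the comparisons of time, knockdown and overexpression. Points are genes, filled for an adjusted p under 0.01 (edgeR). Diamonds are Myog, and the horizontal line marks no difference. Medians are 4.63 in siCtrl with time, -2.33 and -1.67 with the SMYD3 siRNAs at 24 h, and 3.82 and 3.62 in CL5 against vector at 24 h and 0 h.

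In CL5 against vector, 7 of the 39 target genes tested were higher at 24 h (median 3.82) and 6 at 0 h (median 3.62), where 0.376% and 0.465% of all genes were higher, and 0 were lower. At 24 h 3 of the tested genes, and at 0 h 7, had 3 counts or fewer in every vector library of that time. With these set to their bound, the medians were 3.55 and 3.52. Igfn1 was among these, with 2 to 3 counts in the vector libraries of 24 h and 0 to 1 in those of 0 h, and 471 to 1965 and 1050 to 1855 counts in CL5. Igfn1 passed the filter on low counts only through CL5, so its direction was fixed in advance. As the list was written with earlier results known, its counts are a description and no independent support. Lmod3, the leiomodin that nucleates thin filaments, was higher at both times (4.95 and 6.36), Hrc, a calcium-binding protein of the sarcoplasmic reticulum, at 24 h (4.72) and the fast myosin light chain Mylpf at 0 h (6.54). DESeq2 called 27 and 26 of them. When 1 library was left out the counts ran from 0 to 26 at 24 h and from 0 to 28 at 0 h. They were 26 and 28 without the CL5 library of 0 h with Myog at 15.1 CPM and 26 and 15 without that at 78.9 CPM. Without 1 vector library of 0 h they were 4 and 0 or 3 and 0, and without 1 of 24 h 0 and 4. Without 1 CL5 library of 24 h they were 0 and 4 or 1 and 4. In time, edgeR called 0 of the 39 in vector and in CL5, each with a median of 1.52, while 23 and 19 had an unadjusted p under 0.05 and DESeq2 called 8 and 4.

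Of 68 tested partners and regulators of the family, in 5 lists, edgeR called 6 with siSMYD3#1 and 4 with siSMYD3#2 at 24 h, 8.82% and 5.88%, where 5.85% and 3.70% of all genes were called. In siCtrl with time 36 of the 68 were called, and of all genes 14.6% rose and 14.8% fell. The E proteins Tcf4 (1.02, adjusted p = 1.45e-05) and Tcf12 (0.64, adjusted p = 0.000985), the dimer partners, rose in siCtrl and made up 2 of the 3 listed, and edgeR and DESeq2 called 0 of 3 for either siRNA at 24 h or in CL5, with an unadjusted p under 0.05 for 2 with siSMYD3#1 and 0 in the others. Of 3 tested MEF2 genes, Mef2a (1.57) and Mef2d (0.44) rose in siCtrl. Mef2a fell by 0.98 with siSMYD3#1 and by 0.81 with siSMYD3#2 (adjusted p = 0.00831), and 0 of 3 passed in CL5 by edgeR or DESeq2, with 1 at an unadjusted p under 0.05 at each time.

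Of 17 tested inhibitors and repressors of basic helix-loop-helix factors, 8 rose and 5 fell in siCtrl, where 14.6% of all genes rose and 14.8% fell. All 3 named by size fell, Id2 by 2.86 (adjusted p = 5.74e-10), Id3 by 2.69 and Id1 by 1.58, genes of the proteins that hold back E proteins. With siSMYD3#1 at 24 h Msc, the repressor musculin, fell by 1.86 and Hey1 by 1.56, and with siSMYD3#2 Hey1 fell by 0.78. In CL5 Heyl was higher at 0 h (4.14, adjusted p = 0.00998). At 24 h edgeR called 0 of 17, with 6 at an unadjusted p under 0.05 and 3 called by DESeq2. Of 10 tested upstream factors of muscle progenitors, 4 rose in siCtrl, against 14.6% of all genes, among them Six5 (0.74) and Six4 (0.48). None passed with siSMYD3#2, with 3 at an unadjusted p under 0.05 and 0 called by DESeq2. In CL5 edgeR called 0 of 11, with 2 at an unadjusted p under 0.05 at each time, and DESeq2 called 0 at 24 h and 1 at 0 h. Of 35 chromatin cofactors, 7 rose and 8 fell in siCtrl, against 14.6% and 14.8% of all genes. Among them were the deacetylase Hdac4 (0.99), the demethylase Kdm4b (0.97) and the methyltransferase Suv39h1 (-0.91). With siSMYD3#1 2 were higher, Smarcd1 (0.86) and Carm1 (0.41), where 2.91% of all genes were. With siSMYD3#2 2 were lower, the kinase Map2k6 (-0.67) and Smarcd3 (-0.56), where 2.04% of all genes were. In CL5 edgeR and DESeq2 called 0, with 1 at an unadjusted p under 0.05 at 24 h and 3 at 0 h. At 0 h edgeR called 0 of the 68 tested genes of these 5 lists with either siRNA, with 11 and 12 at an unadjusted p under 0.05, and DESeq2 called 4 and 0. Between the extraction methods 43 of the 68 were called, 63.2%, where 51.3% of all genes were. Of the inhibitors 6 were higher and 5 lower in TRIzol, where 26.1% and 25.3% of all genes were, with Msc at -4.94 and Id3 at 1.56. The extraction term stood in every fit of these libraries unless said otherwise.

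The tested gene nearest to Myog, Ppfia4, a scaffold protein gene 4234 bases away, rose with time and fell with both SMYD3 siRNAs at 24 h, as Myog did, but was higher in TRIzol (0.68, adjusted p = 0.000443), where Myog was lower. It rose by 5.32 on the log2 scale in siCtrl (adjusted p = 5.42e-11) and fell by 2.66 with siSMYD3#1 (adjusted p = 3.63e-07) and 1.5 with siSMYD3#2 (adjusted p = 0.00018) at 24 h. Its differences in CL5, 1.98 at 0 h and 1.70 at 24 h, did not pass. Adora1, the adenosine receptor gene on the other side at 54557 bases, had no count in siCtrl at 0 h and 4 to 32 counts at 24 h. It passed the filter on low counts only through libraries of 24 h, so its direction with time was fixed in advance. At 24 h Adora1 had 1 to 5 counts with siSMYD3#1, near the floor and overlapping siCtrl, a log2 difference of -3.02 (adjusted p = 0.00249). With siSMYD3#2 it had 6 to 11 counts and a difference of -0.78 (adjusted p = 0.351). Next to Myf5, Acss3, at 359239 bases, had 0 to 1 counts in each CL5 library, against 17 to 22 in vector at 0 h and 13 to 35 at 24 h (adjusted p = 0.0355 and 0.0531), neither past the threshold.

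Likeness of pattern was measured as Pearson's r of log2 CPM over the 18 siRNA libraries among genes whose mean count reached 100, as a description, since the libraries share conditions and extraction. Myog was most like Mymx (0.992), the fusion micropeptide, Cd82 (0.990), Actc1 (0.990), Chrng (0.989) and Atp2a1 (0.987). Myod1 was most like Dusp1 (0.946), Sh3bp2 (0.933), Csnk1e (0.931), Il33 (0.930) and Cnksr3 (0.923), none of them on the target list. The genes most like Myf5 were Stambpl1 (0.906), Rabggta (0.883), Nkiras2 (0.881), B4gat1 (0.869) and Cdkn1b (0.866). For Myf6 they were Gsap (0.905), Scp2 (0.905), Stom (0.896), Hcfc2 (0.886) and Ube2l6 (0.886). Over the 8 overexpression libraries Myog was most like Il34 (0.996), Mymk (0.991), Dnajb5, Itgb5 and Mylpf (0.990 each), Myod1 like Smoc2 (0.970), Myf5 like Snx2 (0.996) and Myf6 like Nipsnap2 (0.919).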

How the data were processed

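Stranded mRNA libraries were sequenced as paired ends. Per the labels and the study's methods, the authors used FastQC 0.11.5, aligned reads to GRCm38 with HISAT2 2.1.0 and counted them per gene with featureCounts of Subread 1.6.3. The deposited counts are whole numbers without normalization. The strand setting, the handling of reads with several alignments and the annotation release are not given in the sources used here.

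From these counts, edgeR 4.0.16 in R 4.3.3 was run with filterByExpr, TMM scaling and a robust quasi-likelihood test, adjusted by Benjamini-Hochberg over all genes tested, with a threshold of 0.01. The knockdown fit held 18 libraries in 6 groups with extraction as covariate (15820 genes), and the overexpression fit 8 libraries in 4 groups (17835 genes). Both fits were tested on simulated data. An SE is the log2 value divided by the root of F. Symbols, positions and exon lengths came from GENCODE M21, which lacks 846 of the 55341 identifiers. Sequences came from RefSeq (GRCm38.p6; 2 of 4 members matched) and the study's oligonucleotide list.

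The members, lists and tests were chosen with earlier results of these data known. Of each list, at most 3 genes per comparison are named, the largest log2 values among those called with a mean count of at least 100; the exceptions are marker genes and the nearest genes. One gene that this rule names is not reported here. Where no member passed, the list counts were given as such.

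Replicate numbers came from the study's library list. Same-numbered siRNA libraries deviated together in every pair (r 0.366 to 0.851), but the number carries the extraction, and within NucleoSpin r was -0.041 to 0.177. Each comparison was recomputed with DESeq2 1.42.0, the replicate block, no filter, no extraction covariate, NucleoSpin only, all 26 libraries in 1 fit, a threshold of 0.05 and without each library.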

Additional observations from a re-analysis of the deposited data

Results flagged for a closer look

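Myf5 was above its 0 h level in every 24 h library of siCtrl (log2 difference 0.31), siSMYD3#1 (0.42) and CL5 (1.17), and below it in every 24 h library of vector (-0.59), so each of the 3 stood opposite to vector without overlap of the times. Vector and CL5 have only 2 libraries at each time, and the share of all genes with such a pattern was not counted. The difference from vector was then tested in 1 edgeR fit of all 26 libraries. It was 0.85 for siCtrl (SE 0.33, adjusted p = 0.315), 0.96 for siSMYD3#1 (SE 0.33, adjusted p = 0.425) and 1.71 for CL5 (SE 0.37, adjusted p = 0.248), none past the threshold. In the overexpression fit alone the CL5 difference was 1.76 (SE 0.57) and did not pass either. Experiment, transfection and cell line change together between siCtrl and vector and cannot be told apart.

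The effects of the siRNAs on Myog at 24 h differed, with a log2 value of -1.77 for siSMYD3#1 against siSMYD3#2 (adjusted p = 0.00211, edgeR), lower in siSMYD3#1 in 3 of 3 pairs.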

How the results depend on the processing

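Over settings other than leaving out a library, 120 of 144 values that answer a comparison kept direction and side of the threshold, 21 came to pass, 3 no longer passed and 0 turned. For single library omissions the counts were 268 of 280, 3, 8 and 1. The cause was not tested for any of them. Values are log2 differences. Without the extraction covariate Myog at 24 h was -3.669 (siSMYD3#1) and -2.113 (siSMYD3#2), and with all 26 libraries in 1 fit -1.784 (siSMYD3#2), none past the threshold. A threshold of 0.05 added Myf5 (0.313) and Myf6 (1.074) with time in siCtrl, Myf5 with siSMYD3#1 at 24 h (-0.364), and in CL5 Myog at 24 h (3.821), Myod1 at 0 h (1.788) and Myf5 at 0 h (-2.692). NucleoSpin alone added Myod1 in siCtrl (-0.656) and with siSMYD3#2 at 24 h (-0.946, and -0.921 with no filter). In CL5, Myog at 24 h, Myod1 at 24 h and 0 h and Myf5 at 0 h passed with DESeq2 (3.825, 1.482, 1.848, -2.633), no filter (3.834, 1.484, 1.845, -2.639) and all 26 libraries (3.85, 1.509, 1.856, -2.621). Among uncalled values that turned were the Myf5 interaction of siSMYD3#2 (0.016 with no filter, 0.013 with no covariate, 0.141 in NucleoSpin), in NucleoSpin Myf6 with time in siSMYD3#2 (-0.086) and between the siRNAs at 0 h (-0.204) and the Myod1 interaction of siSMYD3#1 (0.103), and Myf6 with time in vector (0 with all 26). Mean levels moved with library totals, an alternative chosen after seeing the data, for Myog in vector at 24 h (6.967 CPM) and Myod1 in CL5 at 24 h (60.17 CPM).

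Single library omissions gave, at 24 h, Myog -2.364 to -1.57 with siSMYD3#2 and -2.015 to -1.218 between the siRNAs, Myf6 -0.453 to 0.005 with siSMYD3#1 and Myf5 -0.166 to 0.067 between the siRNAs. At 0 h they gave Myog -0.774 to 0.11 and Myf6 -0.362 to 0.129 with siSMYD3#1, Myog -0.379 to 0.392, Myod1 -0.151 to 0.351 and Myf6 -0.674 to 0.061 with siSMYD3#2, and Myf6 -0.173 to 0.556 between the siRNAs. With time they gave Myf6 -0.09 to 0.643 in siSMYD3#2 and -0.558 to 0.296 in vector. The interactions were Myf5 -0.131 to 0.102 for siSMYD3#2, Myf6 -0.441 to 0.126 and Myod1 -0.312 to 0.24 for siSMYD3#1, and Myod1 -0.704 to 0.211 for CL5. In CL5 against vector Myog was 5.262 to 7.655 at 0 h and 3.46 to 4.101 at 24 h, Myf5 -2.964 to -2.394 and Smyd3 -0.06 to 0.652 at 0 h.

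With the replicate block no call of a member changed: Myog was -3.58 with siSMYD3#1 (adjusted p = 1.44e-05), -1.81 with siSMYD3#2 (adjusted p = 0.00239), and in CL5 6.75 at 0 h (adjusted p = 0.00655) and 3.88 at 24 h (adjusted p = 0.0235). In the overexpression libraries same-numbered libraries had r of -0.097 to 0.483 and share only a number. There the block raised the target genes called from 7 to 18 at 24 h and from 6 to 14 at 0 h.

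Counts of genes called depended on the setting. For siSMYD3#1 at 24 h the 926 calls became 102 without covariate, 1772 in NucleoSpin, 1496 with no filter and 342 with all 26 libraries. For siSMYD3#2 the 586 became 18, 1275, 1170 and 88, and 1045 with DESeq2. For CL5 the 172 at 24 h and 191 at 0 h became 880 and 1041 with DESeq2, 1032 and 1246 with no filter and 1334 and 1995 with all 26. Single omissions gave 474 to 1043, 174 to 798, 0 to 708 and 0 to 2369. The target genes lower with siSMYD3#2 were 8 with all 26. Depth limits Myf6, with 3 to 42 counts in a library, and Myog at 0 h in the siRNA libraries, with 4 to 109.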
